A study of Homo sapiens with 3 samples.

Results

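The genes described here are 10 genes of the Notch pathway: the receptors NOTCH1, NOTCH2 and NOTCH4, the ligands DLL1, DLL4, JAG1 and JAG2, and the target genes HES1, HEY1 and HEY2. They were chosen by symbol, and all 10 were found in the RefSeq table of GRCh38.p14 among its 59679 genes, 20037 of them protein-coding. The cells were hCMEC/D3, a human line made by immortalizing endothelium from brain microvessels. Per the labels, they grew to confluence on rat tail collagen and were used at passages 4 to 6. Chromatin accessibility came from 1 ATAC-seq library, replicate 2, and there was no second ATAC library, treatment or other cell type, so the values below have no replicate check and no test was made. The 2 RNA-seq libraries of the same line were not analysed here, because the tables used do not link their transcript identifiers to genes.

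Notch receptors are single-pass membrane proteins that bind Delta-like and Jagged ligands on a neighbouring cell. Ligand pulling exposes the receptor to ADAM proteases and then to gamma-secretase, which frees the intracellular domain to enter the nucleus, join the DNA-binding protein RBPJ and a MAML co-activator, and switch on genes of the HES and HEY families. In blood vessels the pathway is known for choosing between tip and stalk cells in sprouts and for specifying arteries. Tn5 transposase, the enzyme of ATAC-seq, cuts accessible DNA, so a peak marks a stretch where cut ends piled up.

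The library had 22188172 tags after removal of repeats at the same position, and 106415 broad peaks were called from it. A peak's pileup is the number of tags covering a base after each tag was extended to 200 bp, given by the caller in broad mode as a mean over the peak. Its fold is the caller's ratio of pileup to background in the same library, after a small constant is added to both. That background is estimated nearby, or over the whole genome where that rate is higher. Pileup and fold are the authors' values for each peak. A peak was placed at a gene end when it overlapped the 1 kb on either side of either end by at least 1 bp, inside when it overlapped the rest of the gene, and in the flank when it reached only the 10 kb beside the gene. Of 10 endothelial marker genes, 10 had an end peak, among them CDH5 with a pileup of 62.6 tags and PECAM1 with 46.8 tags, and the weakest were VWF with 13.2 tags and ERG with 11 tags. Of 24 marker genes of mural cells, glia, neurons and blood cells, 17 had one, near the share of 72.8% of all protein-coding genes. Among them RGS5 of mural cells had 56.8 tags, SYT1 of neurons 48.0 tags and PDGFRB of mural cells 38.5 tags, while KCNJ8, ABCC9 and AQP4 had no peak in the gene or within 10 kb. The median of the 5 mural genes with an end peak, 37.6 tags, was close to the endothelial median of 40.2 tags. With only the 76038 peaks of −log10 q of at least 5, the counts were 7 of 10 and 9 of 24, beside 66.7% of protein-coding genes. With as many peaks taken by highest pileup they were 8 of 10 and 12 of 24, beside 67.5%. All these values are for the outermost ends of each gene. Anywhere in the gene or the 1 kb beside it, the highest pileup was 95.7 tags at VWF and 58.1 tags at ERG. Among the markers of other cell types it was 96.5 tags at MBP of glia and 79 tags at SYT1.

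The stretches of 250 bases just before the start of 4 of the genes are shown because peaks covered them whole and because they hold the motif matches described next. They are RefSeq sequences of GRCh38.p14, written 5′ to 3′ on the strand of the gene, with matches in capitals. HES1 lies at chr3:194135898-194136147 on the plus strand, HEY2 at chr6:125749382-125749631 on the plus strand, NOTCH4 at chr6:32224068-32224317 on the minus strand and DLL4 at chr15:40929090-40929339 on the plus strand.
HES1: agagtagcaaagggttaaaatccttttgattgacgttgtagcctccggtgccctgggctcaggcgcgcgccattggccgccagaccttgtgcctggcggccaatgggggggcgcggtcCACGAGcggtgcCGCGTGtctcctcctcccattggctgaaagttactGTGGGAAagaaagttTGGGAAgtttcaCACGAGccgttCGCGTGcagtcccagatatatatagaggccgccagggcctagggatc
HEY2: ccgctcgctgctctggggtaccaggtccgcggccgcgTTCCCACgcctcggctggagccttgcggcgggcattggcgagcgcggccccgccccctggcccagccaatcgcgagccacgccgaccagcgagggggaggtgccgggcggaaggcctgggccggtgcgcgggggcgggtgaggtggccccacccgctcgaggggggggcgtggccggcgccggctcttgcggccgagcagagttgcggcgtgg
NOTCH4: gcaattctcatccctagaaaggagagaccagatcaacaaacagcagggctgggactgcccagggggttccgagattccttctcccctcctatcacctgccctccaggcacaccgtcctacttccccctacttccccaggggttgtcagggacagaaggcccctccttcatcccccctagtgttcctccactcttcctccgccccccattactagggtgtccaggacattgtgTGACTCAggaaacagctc
DLL4: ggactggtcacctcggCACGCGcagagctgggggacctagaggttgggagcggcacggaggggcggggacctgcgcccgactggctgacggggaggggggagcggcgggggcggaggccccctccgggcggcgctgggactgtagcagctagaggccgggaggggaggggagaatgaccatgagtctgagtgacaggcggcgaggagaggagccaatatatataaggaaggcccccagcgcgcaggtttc

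Exact letters were searched on both strands: GTGGGAA and its shorter core TGGGAA, which RBPJ is known to bind, the E-box CACGTG, the sites CACGCG and CACGAG known for HES and HEY proteins, TGANTCA for AP-1 and CCGGAAG for ETS factors. GTGGGAA contains TGGGAA, so each match of the first is also one of the second. The promoter table held 8 of the 10 genes, and DLL1 and HEY1 were the other 2. GTGGGAA was found in 2 of the 8, HES1 and HEY2, compared with 5.43% of the 35116 promoters in the table (a gene can have several). In HES1 it ran from base 85 to base 79 before the start, and a second TGGGAA on the same strand ran from base 70 to base 65. TGGGAA in any number was found in the same 2 of the 8, compared with 20.8% of promoters in the table and 20.1% of those of protein-coding genes. Promoters with at least 2 matches of TGGGAA made up 2.9% of the table. In HEY2 the match lay on the opposite strand, from base 213 to base 207 before the start.

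The HES1 stretch also held CACGAG at bases 132 to 127 and 58 to 53, and CACGCG on the opposite strand at bases 120 to 115 and 47 to 42. CACGCG occurred in 9.72% of promoters in the table and CACGAG in 5.58%. DLL4 had CACGCG at bases 234 to 229, and JAG2 had it at bases 236 to 231. NOTCH4 had the AP-1 letters as TGACTCA at bases 18 to 12, a motif present in 6.57% of promoters. NOTCH1, NOTCH2 and JAG1 held none of the 7 motifs, and CACGTG (6.34% of promoters) and CCGGAAG (8.52%) were in none of the 8. Over the 22199 promoters of protein-coding genes alone, the shares were 5.27% for GTGGGAA, 12.2% for CACGCG and 6.12% for CACGAG. They were 5.36% for TGANTCA, 7.37% for CACGTG and 10.7% for CCGGAAG. The stretches of the 8 genes had 58.0% to 81.6% G and C, beside a median of 62% for those promoters. These are matches of letters, not measured binding.

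Peaks covered all 250 bases before the start in 7 of the 8 genes, compared with 55.6% of the 15843 protein-coding genes in the promoter table. JAG2 was the exception, with 4 bases covered. Across the 10 genes and their flanks there were 56 peaks, from 2 at JAG2 to 11 at NOTCH1, with a median of 5 per gene. They were 200 to 1864 bp long with a median of 426 bp, and their pileup ran from 8.73 to 92.8 tags with a median of 29.6. Over the whole library the median peak had 452 bp and 21.6 tags. Peaks over 1000 bp made up 15 of the 56 (26.8%), compared with 12.7% of all peaks. The values for the whole library take in peaks at any distance from genes, so these comparisons are not matched for position. Start peaks of these genes were longer and higher in median than those inside or in the flanks, as given below. Of the 56 peaks, 17 also touched another gene or the 1 kb around it.

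**Figure D1:**
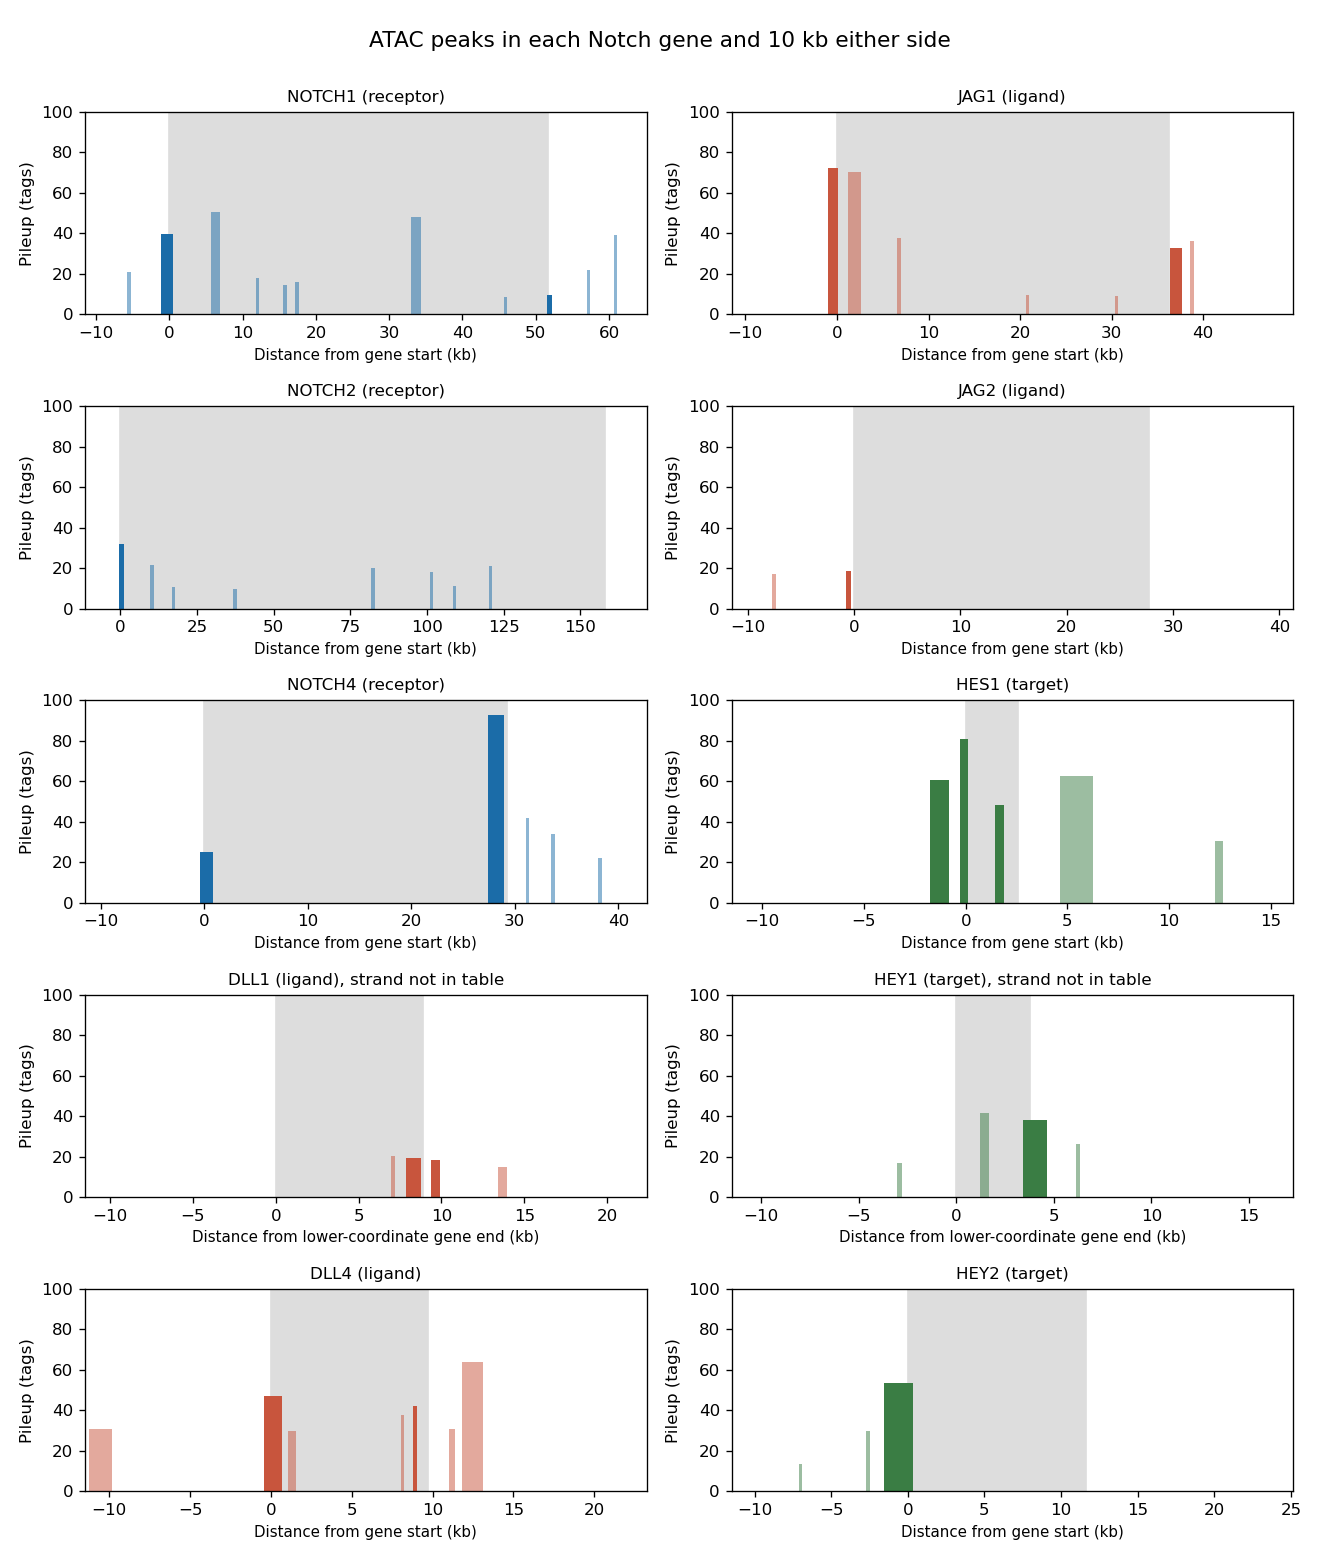
Each panel plots the ATAC peaks of 1 gene, with pileup in tags on the vertical axis and distance in kb on the horizontal axis, from the gene start or, for DLL1 and HEY1, from the end of lower coordinate. Grey marks the gene, solid bars are peaks at a gene end, pale bars are peaks inside or in the flank, and the narrowest bars are widened to be visible. NOTCH4 has its tallest peak, 92.8 tags, at the end away from its start, and JAG2 has no peak inside the gene.

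All 10 genes had a peak at an end, where 72.8% of protein-coding genes did, and among genes within 1.5-fold of the members' lengths the share ran from 60.2% for HES1 to 80.8% for NOTCH4. A strand was given for 8 of them, and 8 of the 8 had a peak at the start, compared with 71.2% of the 15843 protein-coding genes with a strand. The other end carried a peak in 5 of the 8 (NOTCH1, NOTCH4, DLL4, JAG1 and HES1), compared with 19.1% of those genes. Counted without strand, 5 of the 10 genes had peaks at both ends, against 15.4% of protein-coding genes. The far-end peaks of NOTCH1 and HES1 were weak, with a −log10 q of 1.69 and 1.59, below the limit of 5 used above. That of NOTCH4 also touched GPSM3 or the 1 kb around it. The shares of 19.1% and 15.4% are over genes of all lengths, and neither was computed with that limit. HES1 is only 2.6 kb long, so both of its end windows lie close together. Start peaks, 9 in all because HES1 had 2, had a median pileup of 47.0 tags and a median length of 1150 bp. The 21 peaks inside genes were lower and shorter, with medians of 20.1 tags and 335 bp, and the 18 in the flanks had medians of 30.1 tags and 363 bp.

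More peaks than the median gene of similar length were found at 7 of the 10 genes, compared with 42.8% of protein-coding genes. NOTCH2 and HEY2 equalled the median, and JAG2 was below it. Above 90% of genes of similar length stood 3 of the 10, DLL4, NOTCH1 and HES1, where 7.38% of protein-coding genes did; this limit was chosen after the values were seen. When only peaks of −log10 q of at least 5 were counted, the share of genes of similar length with fewer peaks fell from 96.5% to 90.8% for DLL4, from 90.4% to 87.3% for HES1 and from 94.4% to 70.0% for NOTCH1. DLL4 alone of the 3 then stayed above 90%. HES1 was also below it with flanks of 20 kb, at 84.8%, and against genes within 2-fold of its length, at 89.9%, and NOTCH1 with flanks of 5 kb, at 88.2%.

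**Figure D2:**
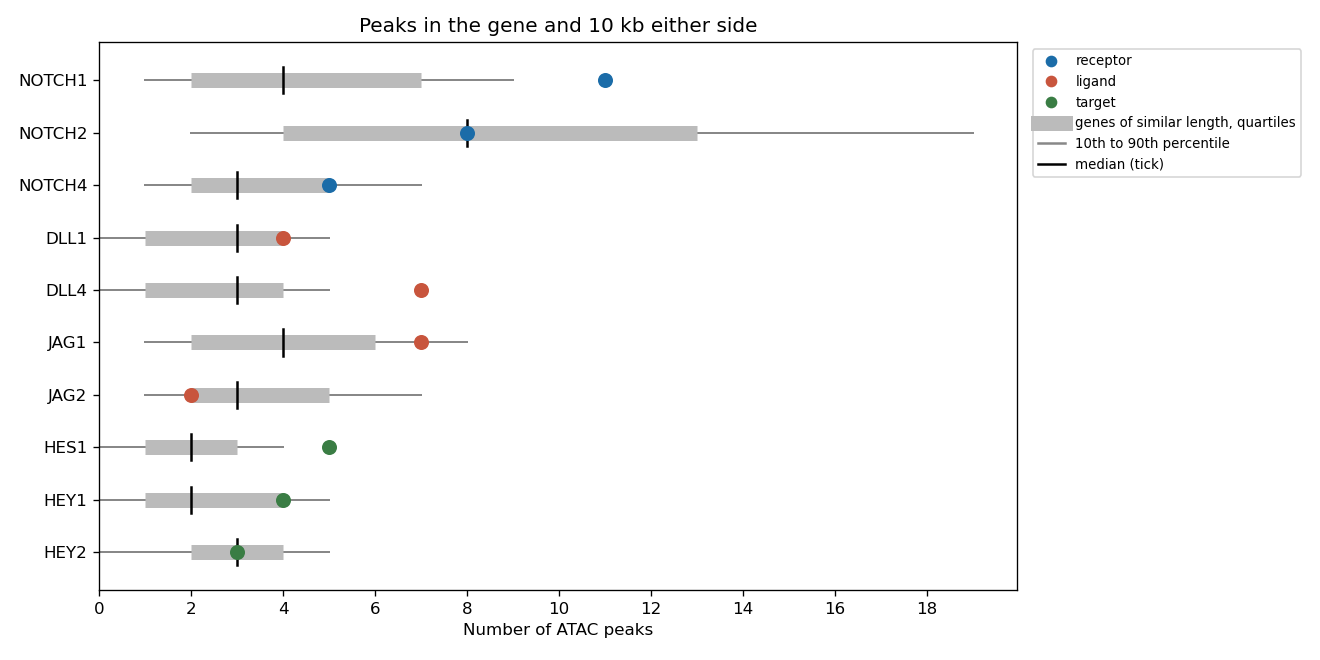
The number of ATAC peaks in each gene and 10 kb either side (coloured points) is set against protein-coding genes within 1.5-fold of its length (grey bar, quartiles; thin line, the 10th to the 90th percentile; black tick, the median). DLL4, NOTCH1 and HES1 lie beyond the 90th percentile with 7, 11 and 5 peaks.

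NOTCH1, the receptor best known for its part in artery formation, had 11 peaks over 51.6 kb of gene and its flanks, against a median of 4 for 3806 genes of similar length. Its start peak, chr9:136545488-136547248, was 1761 bp long, its pileup was 39.7 tags and its fold 3.30, and it also touched NALT1 and MIR4674. In length it exceeded 91.8% of the strongest end peaks of genes of similar length, while in pileup it exceeded 34.3%. The 6 peaks inside the gene stood against a median of 2. The highest of them were chr9:136539183-136540421, 6.2 kb past the start, with 50.6 tags over 1239 bp, and chr9:136511742-136513021, 33.7 kb past the start, with 48.2 tags over 1280 bp. Both were higher than the start peak, although for the second the counting error reaches into the range of the start peak. The remaining 4 inside ran from 8.73 to 17.7 tags, and the peak at the far end had 9.33 tags. Of the 3 flank peaks, 1 touched the neighbouring gene SEC16A.

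NOTCH2, a receptor widely expressed and known for its role with JAG1 in bile duct and kidney, spans 158.1 kb. It had 8 peaks, equal to the median of 2057 genes of similar length: 1 at the start, 7 inside and none in the flanks. The start peak, chr1:120068470-120070086, had 31.8 tags over 1617 bp. The 7 inside were low, from 9.80 to 21.7 tags, and the closest to the start lay 10.3 kb into the gene. Peaks made up 2.34% of the gene and its flanks, compared with 9.93% at NOTCH1.

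NOTCH4, a receptor whose expression is known to be largely endothelial, had a modest peak at its start and a tall one at its far end. The start peak, chr6:32223216-32224430, had 25.2 tags over 1215 bp and exceeded 13% of start peaks of 2647 genes of similar length. The far peak, chr6:32195112-32196666, had 92.8 tags over 1555 bp, with a 95% counting interval of 86.2 to 99.9 tags. That was higher than the strongest end peak of 98.3% of genes of similar length and the highest pileup of the 56. It lay 28.2 kb past the start of NOTCH4 and also touched GPSM3 or the 1 kb around it, so a peak at this place counts for both genes. The 3 flank peaks, of 22.1 to 42.0 tags, lay on the same side, at GPSM3 and PBX2. No peak lay inside NOTCH4 away from its ends, where the median gene of similar length had 1.

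DLL4, the ligand known for marking endothelial tip cells and arteries, had 7 peaks around a gene of 9.7 kb, against a median of 3. Of 3418 genes of similar length, 96.5% had fewer and 1.17% had more. Peaks made up 17.2% of the gene and its flanks, the highest share of the 10 genes, and none of the 7 touched another gene. The start peak, chr15:40928913-40930015, had 47.0 tags over 1103 bp and exceeded 48.9% of start peaks of similar genes. The highest peak of the locus was not at the start: chr15:40941188-40942474, in the flank 12.5 kb past the start, had 64.1 tags over 1287 bp. With a window of 2500 bp at gene ends, a distance that takes in this peak, DLL4 rose from 50.3% to 78.3% in the order of end pileup. The other 5 peaks had 29.7 to 42.3 tags, on both sides and inside.

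JAG1, the ligand whose loss of 1 copy is known as a cause of Alagille syndrome, had a pair of tall, broad peaks at and just inside its start. The start peak, chr20:10673873-10675025, had 72.1 tags over 1153 bp, above 88.3% of start peaks of genes of similar length. The next, chr20:10671416-10672746, 1.9 kb past the start, had 70.2 tags over 1331 bp. Another, 6.8 kb past the start, had 37.6 tags, and those further inside had 9.27 and 9.55 tags. At the far end there were 32.8 tags over 1250 bp, and 36.3 tags in the flank beyond. With 7 peaks, JAG1 had more than 81.7% of 4188 genes of similar length, and none of the 7 touched another gene.

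DLL1 and JAG2 were the weakest of the ligands. DLL1, a Delta ligand known for artery maintenance, had 4 peaks of 14.7 to 20.2 tags, all toward its end of higher coordinate, where FAM120B lies close by and shares 3 of them. Its strongest end peak, chr6:170290072-170290972, had 19.3 tags over 901 bp, above 11.7% of genes of similar length. None of the 4 reached a −log10 q of 5, so with that filter DLL1 had no peak. JAG2, a second Jagged ligand, had 2 peaks, where 65.2% of genes of similar length had more. The one at the start, chr14:105169023-105169513, had 18.8 tags over 491 bp, above 8.33% of start peaks, and its centre lay 0.5 kb before the start. The other, of 17.2 tags, was 7.5 kb before the start at NUDT14. The counting intervals of the DLL1 and JAG2 end peaks, 15.5 to 23.8 and 13.7 to 25 tags, overlapped.

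HES1, which encodes a repressor of the basic helix-loop-helix class and is a direct RBPJ target, had the highest start peak of the 8 genes with a strand. That peak, chr3:194135867-194136252, spans the RBPJ letters shown above and had 80.8 tags over 386 bp, with an interval of 68.6 to 94.5 tags. It exceeded 93.5% of start peaks of genes of similar length in pileup, and in length only 12.2% of strongest end peaks. A second start peak, chr3:194134403-194135339, had 60.5 tags over 937 bp. Around a gene of 2.6 kb there were 5 peaks, against a median of 2, and none touched another gene of the table. The far-end peak had 48.1 tags at a fold of 1.63, the lowest fold of the 10 genes' peaks. In the flank, 5.4 kb past the start, chr3:194140769-194142403 had 62.8 tags over 1635 bp.

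HEY2, known from zebrafish as gridlock and for its part in arterial identity, had 3 peaks, equal to the median of 3724 genes of similar length. Its start peak, chr6:125748093-125749956, was the longest of the 56 at 1864 bp, longer than 94.8% of the strongest end peaks of similar genes. It had 53.4 tags, above 59.5% of start peaks. The other peaks, of 29.6 and 13.7 tags, lay 2.6 and 7.0 kb before the start. All 3 also touched HEY2-AS1, an antisense gene, and ATAC signal has no strand that could assign them. No peak lay inside HEY2 or beyond its far end.

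HEY1, a relative of HEY2 that responds to Notch in endothelium, had 4 peaks around a gene of 3.8 kb, against a median of 2. Its end peak, chr8:79767438-79768662, had 38.0 tags over 1225 bp, above 37.9% of genes of similar length, and touched LINC01607 and LOC101927040. A peak inside, chr8:79765238-79765674, had 41.5 tags over 437 bp, and the flank peaks had 16.8 and 26.2 tags.

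Ordered by the strongest end peak, the 10 genes were NOTCH4 (92.8 tags), HES1 (80.8), JAG1 (72.1), HEY2 (53.4), DLL4 (47.0), NOTCH1 (39.7), HEY1 (38.0), NOTCH2 (31.8), DLL1 (19.3) and JAG2 (18.8). Counting intervals, exact Poisson at 95% from the tags under each peak, cover counting error only. They left 2 gaps in the order, between JAG1 and HEY2 and between NOTCH2 and DLL1, and the remaining neighbours overlapped. Each role was spread over this order: receptors from 31.8 to 92.8 tags, ligands from 18.8 to 72.1 and targets from 38.0 to 80.8. The strongest peak of the gene and its flanks was the start peak in 5 of the 8 genes with a strand, compared with 46.1% of such protein-coding genes with any peak. The exceptions were NOTCH1, NOTCH4 and DLL4.

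**Figure D3:**
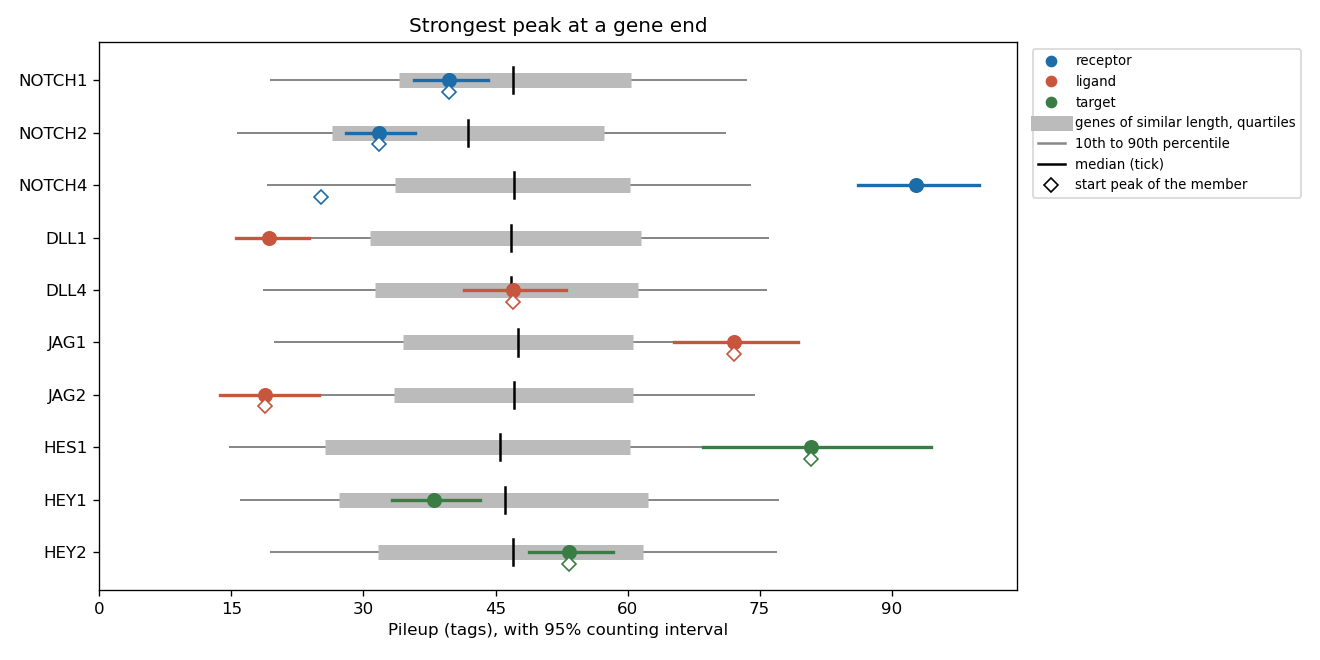
The pileup in tags of the strongest peak at either end of each gene (filled points; coloured lines, 95% counting intervals) is set against protein-coding genes of similar length with an end peak (grey bar, quartiles; thin line, the 10th to the 90th percentile; black tick, the median). Open diamonds give the start peak of the 8 genes with a strand, and NOTCH4 is the gene where the start peak, 25.2 tags, is far from the strongest, 92.8 tags.

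By fold the picture differed from that by pileup. The strongest end peaks had folds of 2.92 (DLL1) to 4.72 (NOTCH4), below the median of genes of similar length in 10 of 10, compared with 50.2% of protein-coding genes that had one. Those medians ran from 4.39 to 5.28. Pileup divided by fold only approximates the background that the caller used. This quotient was highest at JAG1 (22.6 tags), HES1 (21.9 tags) and NOTCH4 (19.7 tags), above 98.9%, 93.9% and 97.0% of genes of similar length. It was 4.40 tags at JAG2 and 6.61 tags at DLL1, below their medians of 8.74 and 8.73 tags. The order of JAG1 among genes of similar length was 88.4% by pileup and 5.77% by fold.

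Other genes of the pathway were taken from a list grouped by role. Of 53 symbols, 52 were in the gene table (CIR1 was not), and 47 of the 52 had an end peak, where 72.8% of protein-coding genes did. Their median end pileup was 46.1 tags, compared with 45.7 tags over protein-coding genes with one.

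All 9 genes of receptor cleavage had an end peak, from 26.6 tags at APH1B to 95.4 tags at PSENEN, both subunits of gamma-secretase. The 8 genes of turnover and inhibition had one too, from 32.1 tags at DTX1 to 93.2 tags at NUMB, which encodes an adaptor that opposes Notch. So did the 5 sugar transferase genes, which tune how receptors respond to ligands, from RFNG (20.7 tags) to MFNG (65.0 tags). The 6 corepressor genes found ran from 33.3 tags at KDM5A to 71.3 tags at TLE1.

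In the nuclear complex 6 of 7 genes had an end peak, from SNW1 (42.9 tags) to the co-activator MAML1 (74.4 tags). The exception was RBPJ, whose table entry spans 329.7 kb and includes several starts. No peak lay at its outermost ends, 16 lay inside, and 3 of its 5 promoters in the RefSeq table overlapped a peak. Among ubiquitin ligases that drive ligand endocytosis, MIB1 had 56.1 tags and NEURL1 16.5 tags, and MIB2 had no peak at its outermost ends although both of its promoters in the table, 2 of 2, overlapped one.

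The remaining receptor and ligand genes had the lowest share of end peaks of any role, 3 of 6. DLL3 had 31.8 tags and DLK2 26.3 tags, and NOTCH3, DLK1 and CNTN1 had no end peak. NOTCH3, the receptor known for its role in vascular smooth muscle and pericytes, had 3 peaks inside of at most 29.6 tags, and its single promoter in the table overlapped none. The lowest pileup called in the library was 8.0 tags. Calling was against a background that differed between places, so no single pileup marks the limit of detection. A NOTCH1 peak of 8.73 tags had a −log10 q of 1.56, and the far-end peak of HES1, with 48.1 tags, had 1.59. The limit at the genes without an end peak was not determined. The 7 other HES and HEY genes all had an end peak, from 18.6 tags at HEYL to 63.5 tags at HES7, whose strongest peak at the start had 46.1 tags. An end peak need not cover a RefSeq promoter. The single promoters of HES7, HES3 and NEURL1 and the 2 of LFNG overlapped no peak.

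**Figure D4:**
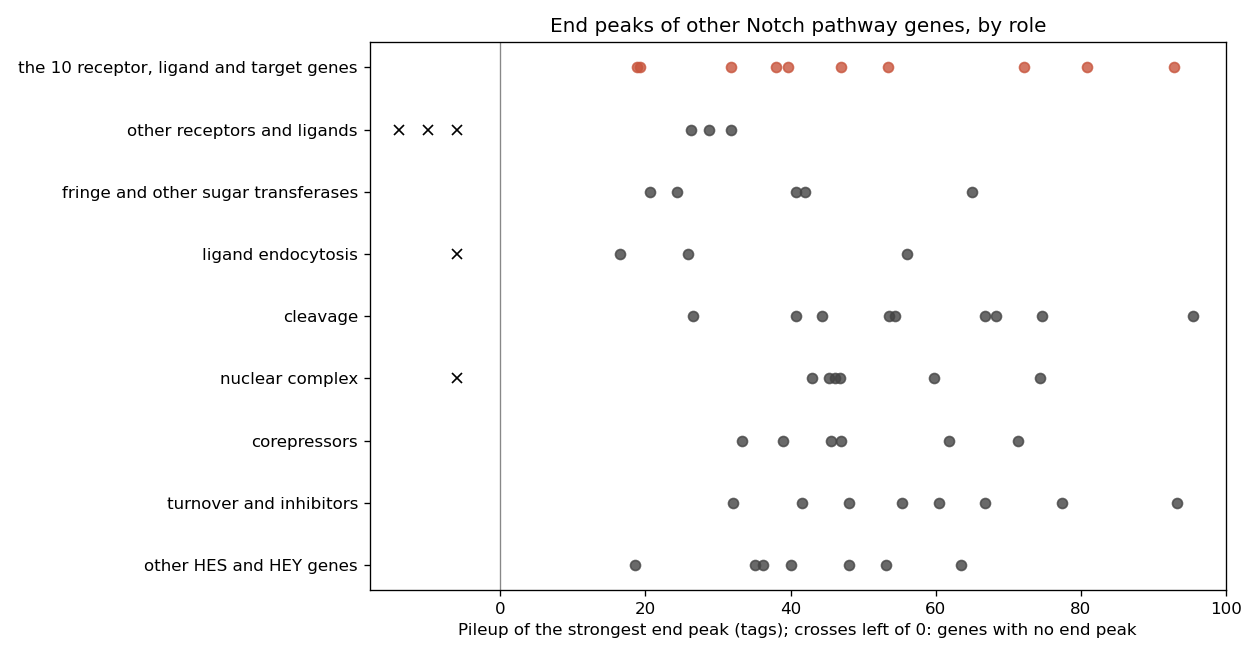
Pileup in tags of the strongest end peak is plotted on the horizontal axis for the 10 genes described above and for 52 other genes of the pathway in rows by role, 1 point per gene. Crosses left of 0 are the 5 genes with no end peak: NOTCH3, DLK1, CNTN1, RBPJ and MIB2.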

How the data were processed

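The authors called broad peaks in 1 ATAC-seq library of hCMEC/D3. Per the file headers they used MACS 2.2.7.1 without a control, a shift of -100 bp, an extension to 200 bp, q limits of 0.05 (0.1 for the broad regions), 1 tag per position (22188172 of 31532245 kept), single-end mode, and an effective genome size of 1870000000 bp, the caller's mouse preset, whose effect on fold and q was not tested. For each peak the deposited values are a pileup signal, a fold enrichment ratio, and the p-value and q-value as −log10. The submitters' processing notes name Bowtie2, SAMtools 1.13, Picard and MACS2, with GRCh38 and mm10, without saying which applies to this file. Peaks were therefore checked against the gene table of GRCh38.p14: on 8 of the 8 chromosomes of the 10 genes, more peaks lay near ends of protein-coding genes than with offsets of 2 to 50 kb.

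Peaks were counted with pandas 2.3.3 and NumPy 2.4.6 in Python 3.11.15, and intervals came from SciPy 1.17.1. Gene ends are the outermost ends in the table, and strand came from the RefSeq promoter table. Exons and introns were not used here. The tags under a peak were taken as pileup times length over 200. Genes of similar length are protein-coding genes within 1.5-fold, without the 10. Placement was tested on simulated data. The genes, lists and motifs were chosen with earlier results of these data known. The text names all 10 genes, every pathway gene without an end peak, and the strongest and weakest of each role.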

Additional observations from a re-analysis of the deposited data

How the results depend on the processing

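Alternatives gave 155 values, of which 81 lay close to the reported ones and 74 did not. Close meant within 1.5-fold for counts and inside a 95% Wilson interval for percentages. Each interval used the median number of genes of similar length over the 10 genes, not the percentage's own number. The split is therefore approximate, and the cause was not tested. The count of genes with an end peak was 10 with windows of 500 and 2500 bp and when 200 bp had to overlap. The count with more peaks than the median was 7 or 8 with the same overlap, with flanks of 5 and 20 kb and with narrower and wider length ranges. When −log10 q had to reach 5 these were 9 (beside 66.7% of protein-coding genes, down from 72.8%) and 6, and the 56 peaks became 34. The 17 marker genes of other cell types with an end peak became 9 with that filter. The median place of the 10 strongest end peaks among genes of similar length, 44.1%, was 52.6% with the 2500 bp window, 30.0% by fold and 63.1% by pileup times length over all end peaks. It was 45.9% with the q filter over the 9 genes left without DLL1, whose median had been 50.3%, and each of the 9 fell. It was 40.7% for starts alone over 8 genes, whose median had been 56.0%. HEY2 fell from 43.1% to 14.4% in peak number with the q filter, and JAG2 from 18.1% to 7.13% with a flank of 5 kb. Starts alone, filtering by pileup, peaks touching no other gene (39 of 56) and peaks anywhere in a pathway gene were alternatives chosen after the data had been seen. No paired analysis was possible because there was a single ATAC library. With 1 library the intervals cover counting error only, and variation between cultures or library preparations was not measured.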

Other observations

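The peak of highest fold among the 56 was not at a gene end. It was chr3:194148373-194148786, 12.4 kb past the start of HES1, with a fold of 9.20 and 30.5 tags over 414 bp, and it touched no gene of the table. The next highest fold, 6.55, belonged to a peak 120.8 kb into NOTCH2 with 21.1 tags. At these pileups such folds mean a low background. The lower limit of that background follows from the genome size set for the caller, an effect that was not tested.

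RBPJ held 2 internal peaks of high fold, chr4:26197146-26197835 with 69.5 tags and a fold of 10.2, and chr4:26206308-26206764 with 36.6 tags and a fold of 9.34. Both also touched other genes of the table, among them LOC124900690. Its other tall peaks, chr4:26318945-26320108 with 57.7 tags and chr4:26320468-26321149 with 49.0 tags, touched no other gene. NRARP, a feedback inhibitor encoded by a gene of 2.6 kb, had 7 peaks in the gene and 10 kb either side, 4 of them in the flanks. DLL4, a gene of 9.7 kb, had as many. For NRARP, neither its place in peak number among genes of similar length nor overlap of these peaks with other genes was determined.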
